A study of Mus musculus with 12 samples.

Results

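The core circadian clock genes were followed in quadriceps of mice, as 10 named genes among the 15344 genes of the 2 tables of expression values. The rule gives the genes by name and uses no expression value, although the names were chosen with earlier results of these data known: Arntl and Npas2, whose proteins activate transcription in the clock, Per1, Per2, Per3 and Cry1, whose proteins repress it, Nr1d1 and Nr1d2, which encode the nuclear receptors REV-ERBα and REV-ERBβ, and Dbp and Tef, which encode transcription factors of the PAR bZIP family. Quadriceps transcripts were measured by RNA-Seq in 3 groups of 4 C57BL/6 mice each, all aged 6 months. The WT group was wild-type and untreated. The KO group lacked acid alpha glucosidase (GAA), the lysosomal enzyme that breaks down glycogen and is deficient in Pompe disease. These mice were injected with PBS at 2 months of age. The AAV group consisted of male GAA-KO mice that had received AAV2/8-LSPhGAApA, a vector from which human GAA is made in the liver and secreted into the blood, through the tail vein at 2 months of age (2e12 vg/kg) and that were killed 4 months later. By these labels, the muscle of treated animals carried the same knock-out as that of the PBS group and received enzyme from another organ. The hour of the day at which the muscles were taken is not given in the sources used here.

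The targeted gene went against the labels, and every direction below rests on those labels. Normalized counts of Gaa (ENSMUSG00000025579) in animals 1 to 4 were 342.9, 14640.2, 323.8 and 460.3 in the libraries labelled WT. In those labelled KO they were 12151, 13074.5, 11936.2 and 12895, and in those labelled AAV they were 946.8, 587, 499.6 and 9854.3. Gaa was therefore high in all 4 libraries labelled KO and low in 3 of the 4 labelled WT, and WT animal 2 and AAV animal 4 stood apart from the rest of their groups. Library depth ranged from 22122233 to 47379737 counted reads, with the lowest depths in the libraries labelled AAV. The markers of skeletal muscle fibres were abundant in each group, with 6 of 6 of them tested and a summed level of 3840820.3 to 6423017.8 normalized counts per library.

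The clock is a feedback loop of transcription that runs in nearly every cell and takes about a day to complete. A heterodimer of ARNTL (also called BMAL1) with CLOCK or its relative NPAS2 binds E-boxes and turns on the Period, Cryptochrome and REV-ERB genes and Dbp. PER and CRY proteins then return to the nucleus and shut the activator down, and the REV-ERB receptors, which compete with the ROR receptors for the same elements, repress Arntl. DBP and TEF bind D-boxes and add a further layer of rhythm. In skeletal muscle, as in other tissues, transcripts of Arntl and Npas2 are high when those of Dbp, Per3 and Nr1d1 are low, so that the ratio of such genes within a single sample follows the internal time of the tissue. Per1 and Per2 also respond directly to glucocorticoids and other stimuli.

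The binding elements of this loop were located in the promoters of the genes themselves. Promoters are shown for 3 genes that passed a test below (Per3, Cry1 and Nr1d2) and for Per1, the Period gene that passed no test. Npas2 also passed a test, but its promoter window held none of the motifs sought and is not printed. RefSeq windows on GRCm38.p6, of 250 bases before and 50 bases after a start, were found for 9 of the 10 genes, and Per2 had no entry. The printed stretches are the 250 bases before the start, written 5′ to 3′ along the strand of the gene. They lie at chr4:151044666-151044915 (- strand) for Per3, chr10:85185055-85185304 (- strand) for Cry1, chr14:18239107-18239356 (- strand) for Nr1d2 and chr11:69098699-69098948 (+ strand) for the first start of Per1. Capitals mark the D-boxes in Per3, an E-box variant and then an E-box in Cry1, a REV-ERB/ROR core motif in Nr1d2, and an E-box followed by a core motif on the other strand in Per1.
Per3: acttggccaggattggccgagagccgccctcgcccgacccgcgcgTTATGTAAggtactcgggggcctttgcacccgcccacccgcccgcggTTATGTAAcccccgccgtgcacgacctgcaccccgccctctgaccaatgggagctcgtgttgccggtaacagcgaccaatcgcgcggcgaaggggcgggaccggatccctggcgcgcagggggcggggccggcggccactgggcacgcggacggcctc
Cry1: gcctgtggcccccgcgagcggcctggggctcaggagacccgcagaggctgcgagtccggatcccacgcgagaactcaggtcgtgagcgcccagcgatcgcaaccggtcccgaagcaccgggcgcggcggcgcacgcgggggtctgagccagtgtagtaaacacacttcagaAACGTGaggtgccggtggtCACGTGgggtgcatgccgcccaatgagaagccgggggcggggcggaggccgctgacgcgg
Nr1d2: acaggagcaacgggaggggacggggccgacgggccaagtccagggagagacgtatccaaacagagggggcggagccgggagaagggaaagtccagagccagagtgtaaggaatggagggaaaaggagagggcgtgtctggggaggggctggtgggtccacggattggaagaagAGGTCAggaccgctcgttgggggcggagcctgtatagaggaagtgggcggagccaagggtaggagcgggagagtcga
Per1: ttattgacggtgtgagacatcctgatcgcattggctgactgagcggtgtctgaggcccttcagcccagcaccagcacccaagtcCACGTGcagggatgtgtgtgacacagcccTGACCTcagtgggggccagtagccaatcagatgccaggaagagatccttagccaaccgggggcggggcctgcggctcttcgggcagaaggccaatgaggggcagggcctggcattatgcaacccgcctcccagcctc

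Motifs were searched on both strands, and none of them overlaps another. The D-box TTATGTAA occurred in the promoter of Per3 at 205 and at 158 bases before the start and in none of the other genes' windows. It was present in 0.938% of 32851 promoter windows of that length. The E-box CACGTG was found for Cry1, Per1 and Tef, against 7.15% of all windows, and its variant CACGTT (read as AACGTG from the other strand) for Cry1 and Nr1d1, against 4.68%. The core motif AGGTCA of REV-ERB and ROR elements was found for Arntl, Nr1d2 and Per1, against 16.3% of all windows, and the D-box variant TTACGTAA, present in 0.119% of all windows, in none of these windows. In Cry1 the variant and the E-box lay 79 and 60 bases before the start, and in Nr1d2 the core motif lay 77 bases before it. These matches are letters in a window and do not show binding in these muscles.

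To ask how the clock genes differed between knock-out and wild-type muscle, the libraries labelled KO were compared with those labelled WT. Per2, Per3 and Nr1d2 were higher in the libraries labelled KO and Npas2 was lower, while the remaining 6 genes did not pass the test. A gene was called when its adjusted p was under 0.05 by limma on log2(normalized count + 1) with Benjamini-Hochberg adjustment over all genes tested. All 10 genes passed the filter on low values. In whole muscle, fewer cells of a type and less RNA per cell cannot be told apart. Of the 10, 4 were called, against 27.6% of all genes tested, with 3 higher (12.3% of all genes) and 1 lower (15.3% of all genes). The values of both groups did not overlap for 4 genes (Npas2, Per2, Per3 and Tef), and for 28.3% of all genes tested (13.3% higher in KO and 15.1% lower). The median log2 fold change over the 10 was 0.36, beside 0.02 over all genes. The share called is not far from that of all genes and is not a result about the clock genes as a set. Without WT animal 2, the library labelled WT with high Gaa, 2 of the 10 were called (Per2 and Per3).

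**Figure D1:**
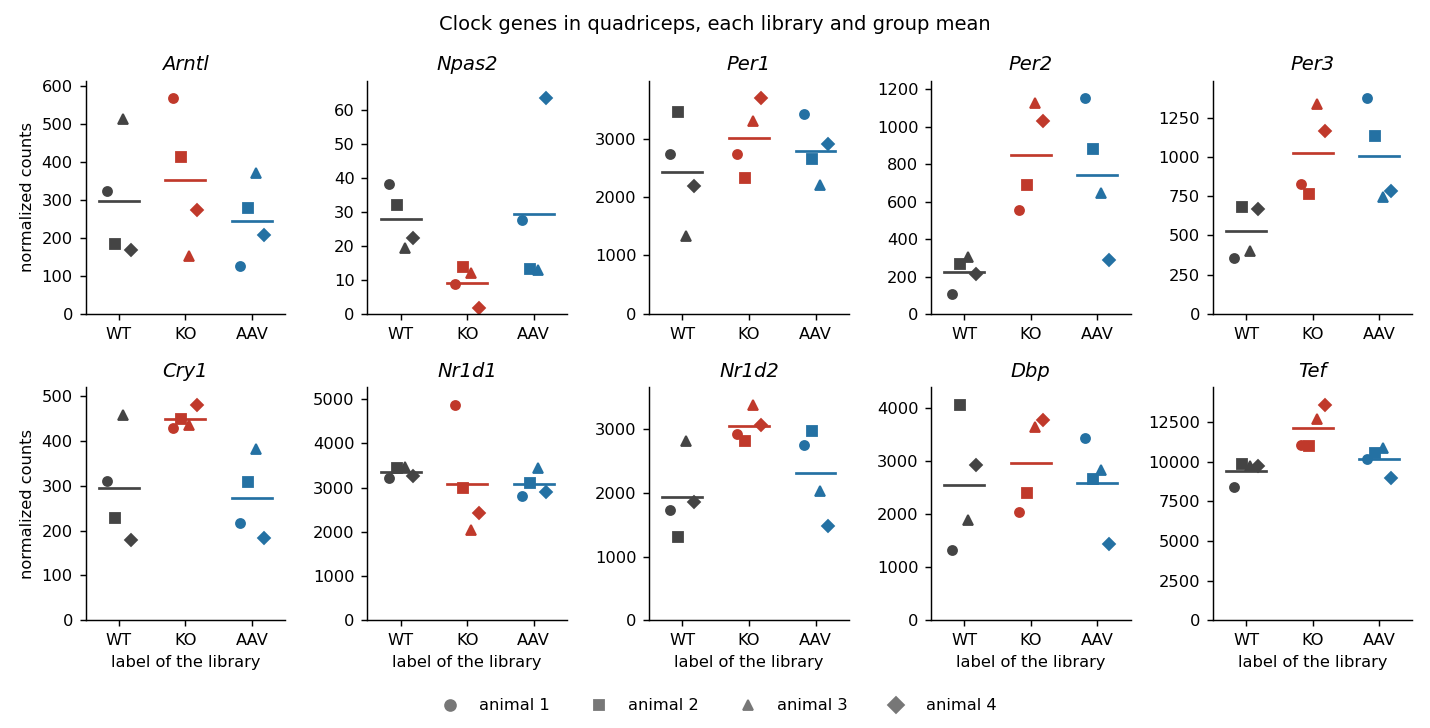
Normalized counts of the 10 clock genes (vertical axis, linear and starting at 0) in each library, by the label of the library on the horizontal axis. Points are animals, marker shapes are animal numbers within a group and do not pair animals, and horizontal lines are group means (n = 4). Per2 and Per3 lie higher in every library labelled KO than in any labelled WT, and the 4 values of Cry1 labelled KO lie between 428 and 480.1.

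To see what gene therapy changed, the libraries labelled AAV were then compared with those labelled KO, which served in both comparisons, so that their results are not independent. Cry1 was lower in the libraries labelled AAV and was the only 1 of the 10 genes called. Of all genes tested, 26.3% were called (12.8% higher in AAV and 13.4% lower), so this count is not a result about the clock genes as a set. Without AAV animal 4, the library labelled AAV with high Gaa, Cry1 was still the only 1 called, but 0 of the 10 were called without AAV animal 1 or without any 1 of the KO animals. Groups did not overlap for Cry1 and Tef, and for 30.6% of all genes (14.8% higher in AAV and 15.8% lower). The median log2 fold change over the 10 was -0.23, beside 0.04 over all genes. Between the libraries labelled AAV and WT, 0 of the 10 were called by limma, against 1.29% of all genes tested. Of these 10, 2 genes (Per2 and Per3) had an unadjusted p under 0.05 by limma, edgeR on the recovered reads called 0, and DESeq2 called 2. The other 8 genes had log2 fold changes between -0.23 (Arntl) and 0.27 (Per1) for AAV against WT. Only Per3 did not overlap between these groups, against 11.7% of all genes (6.69% higher in AAV and 4.97% lower).

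**Figure D2:**
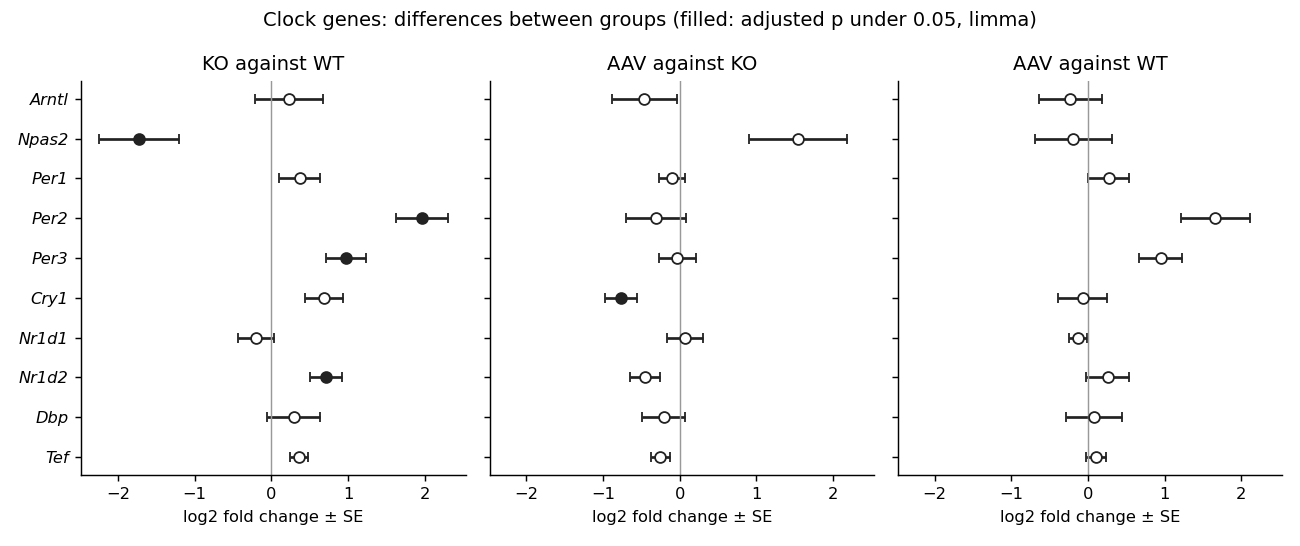
Log2 fold changes of the 10 clock genes (horizontal axis, log2 of normalized count + 1) with standard errors from limma, for the libraries labelled KO against WT, AAV against KO and AAV against WT (n = 4 per group). Filled points have an adjusted p under 0.05: Npas2, Per2, Per3 and Nr1d2 in the first panel, Cry1 in the second and none in the third.

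Of the activators, Npas2 was lower in the libraries labelled KO and Arntl did not pass the test. Npas2 (ENSMUSG00000026077, chromosome 1, 39193731 to 39363236, + strand) is a relative of Clock that pairs with ARNTL. It was the least abundant of the 10 genes, at 38, 31.9, 19.5 and 22.4 normalized counts in WT animals 1 to 4. The libraries labelled KO had 8.7, 13.7, 12 and 1.8, and those labelled AAV 27.6, 13.1, 13 and 63.3. Every library labelled KO lay below every library labelled WT, while the libraries labelled AAV reached from the upper end of the KO values to above the WT values, the highest being AAV animal 4. On the log2 scale, KO differed from WT by -1.73 ± 0.52 (SE, adjusted p = 0.0347, limma), and the mean was 27.95 ± 8.54 in WT and 9.03 ± 5.26 in KO (SD, n = 4). The call was lost when WT animal 1, WT animal 2, WT animal 4 or KO animal 1 was left out, with log2 fold changes from -1.81 to -1.57, and over all 8 such fits the adjusted p lay between 0.0175 and 0.0896 (limma, Benjamini-Hochberg). For AAV against KO, Npas2 had a log2 fold change of 1.54 ± 0.64 (SE, adjusted p = 0.0994, limma), and DESeq2 called it (adjusted p = 0.0434).

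Arntl (ENSMUSG00000055116, chromosome 7, 113207465 to 113314126, + strand), the gene for BMAL1 and the one clock activator without which the loop stops, varied widely within each group. Its normalized counts were 323, 183.9, 513.8 and 168.7 in WT animals 1 to 4, 567.2, 413.9, 152.3 and 274.1 in the libraries labelled KO, and 126.8, 278.9, 370.8 and 206.5 in those labelled AAV. The highest library exceeded the lowest by a factor of 3.05 in WT, 3.73 in KO and 2.93 in AAV. The groups overlapped in all comparisons. The difference on the log2 scale was 0.23 ± 0.44 (SE, adjusted p = 0.715) for KO against WT and -0.46 ± 0.42 (SE, adjusted p = 0.423) for AAV against KO, both by limma with Benjamini-Hochberg adjustment, so that a difference in Arntl was smaller than the spread between animals. Without KO animal 3 the first of these values was 0.58 and without KO animal 1 it was -0.05.

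The 3 Period genes encode the partners of the Cryptochromes in the repressor complex, and of these, Per2 and Per3 were higher in the libraries labelled KO while Per1 did not pass the test. Per2 (ENSMUSG00000055866, chromosome 1, 91415982 to 91459324, - strand) was counted at 106.8, 266.8, 304.4 and 211.6 (normalized) in WT animals 1 to 4. The libraries labelled KO had 555.6, 687.5, 1126.8 and 1031.8. The lowest KO value was above the highest WT value. The means were 222.4 ± 86 in WT and 850.5 ± 272.5 in KO (SD, n = 4), a log2 difference of 1.97 ± 0.34 (SE, adjusted p = 0.00414, limma), which is a 3.93-fold difference. The exact two-sided permutation test gave p = 0.0286, the smallest that 4 against 4 libraries allow. The call held in all 8 fits that left out 1 library, with log2 fold changes from 1.66 to 2.16.

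Normalized counts of Per2 in the libraries labelled AAV were 1152.2, 880.9, 647.2 and 286.3. AAV animals 1 to 3 lay within or above the range of the libraries labelled KO, and AAV animal 4, the library labelled AAV with high Gaa, lay within the range of those labelled WT. On the log2 scale, AAV differed from KO by -0.31 ± 0.39 (SE, adjusted p = 0.574, limma). Against WT it was 1.66 ± 0.45 (SE, adjusted p = 0.103, limma), with the exact two-sided permutation test at p = 0.0571. Without AAV animal 4 that difference was 2.06 and passed the threshold (adjusted p = 0.0470 by limma, within a range of 0.0470 to 0.272 over the 8 fits that left out 1 library).

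Per3 (ENSMUSG00000028957, chromosome 4, 151003652 to 151044665, - strand), whose promoter carries the pair of D-boxes shown above, was counted at 353.8, 683.5, 403.4 and 671 (normalized) in WT animals 1 to 4. The libraries labelled KO had 827.1, 761.1, 1335.7 and 1168, and those labelled AAV had 1374.1, 1133.6, 744 and 782.8. All 8 libraries labelled KO or AAV were higher than all 4 labelled WT. On the log2 scale, KO differed from WT by 0.98 ± 0.26 (SE, adjusted p = 0.0229, limma; exact two-sided permutation p = 0.0286). The call was lost without WT animal 1 (0.80), KO animal 3 (0.83) or KO animal 4 (0.90), with adjusted p from 0.0203 to 0.0644 over the 8 fits (limma). Per3 in the libraries labelled AAV differed from those labelled KO by -0.03 on the log2 scale (standard error 0.24) and from those labelled WT by 0.95 ± 0.28 (SE, adjusted p = 0.129, limma, exact two-sided permutation p = 0.0286).

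The gene span of Per3 lies wholly within that of Camta1 on the same strand (41014 shared bases), and a read in an intron of Camta1 could bear on either. Camta1, which encodes a calmodulin-binding transcription activator, had a log2 fold change of -0.73 ± 0.13 for KO against WT (SE, adjusted p = 0.00461, limma) and of 1.01 ± 0.22 for AAV against KO (SE, adjusted p = 0.0116, limma).

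Per1 (ENSMUSG00000020893, chromosome 11, 69095217 to 69109960, + strand), the Period gene with the most rapid response to stimuli, was counted at 2729.1, 3455.9, 1340 and 2186.6 (normalized) in WT animals 1 to 4, 2729.5, 2317.5, 3302.2 and 3689.7 in the libraries labelled KO, and 3423.5, 2648.9, 2204.9 and 2902.7 in those labelled AAV. The ranges overlapped throughout, with the lowest value in WT animal 3. The difference on the log2 scale was 0.37 ± 0.27 (SE, adjusted p = 0.317) for KO against WT and -0.10 ± 0.17 (SE, adjusted p = 0.679) for AAV against KO (limma, Benjamini-Hochberg). The Period genes thus split, with Per2 and Per3 called and Per1 not, though whether their changes differ from one another was not tested.

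Cry1 (ENSMUSG00000020038, chromosome 10, 85131700 to 85185064, - strand), the gene of a Cryptochrome that binds and silences the activator, was lower in the libraries labelled AAV than in those labelled KO. It also had the smallest spread, relative to its level, of the 10 genes in the libraries labelled KO, where the normalized counts were 428, 449, 434 and 480.1. In the libraries labelled AAV they were 217.8, 309.1, 382.6 and 183.5, and in those labelled WT 311.3, 228.6, 457.8 and 178.5. Each library labelled AAV was below each labelled KO, while the ranges of WT and AAV coincided for the most part. The mean was 447.8 ± 23.3 in KO and 273.3 ± 90.1 in AAV (SD, n = 4), a log2 difference of -0.77 ± 0.21 (SE, adjusted p = 0.0269, limma, exact two-sided permutation p = 0.0286). The call stood in 3 of the 8 fits that left out 1 library. It was lost without any 1 of the 4 KO animals or without AAV animal 1, with adjusted p from 0.00528 to 0.0739 over the 8 fits (limma). The same difference had an adjusted p of 0.0517 with the replicate number as a block and of 0.0682 with all 12 libraries in one limma fit, neither of which passed.

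For KO against WT the log2 fold change of Cry1 was 0.69 ± 0.25 (SE, adjusted p = 0.0659, limma, exact two-sided permutation p = 0.114). Only WT animal 3 reached the level of the libraries labelled KO. The difference passed the threshold when libraries were scaled to their totals (0.68, adjusted p = 0.0497, limma). Without WT animal 3 the value was 0.94 and passed as well, with adjusted p from 0.00188 to 0.153 over the 8 fits (limma).

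Of the REV-ERB genes, Nr1d2 was called and Nr1d1 was not. Nr1d2 (ENSMUSG00000021775, chromosome 14, 18204054 to 18239127, - strand), which encodes REV-ERBβ, was higher in the libraries labelled KO, with normalized counts of 2913.1, 2805.8, 3377.3 and 3055.8. The libraries labelled WT had 1736.5, 1302.2, 2816.4 and 1846.2, and those labelled AAV 2744, 2961, 2033.7 and 1473.8. The groups labelled WT and KO overlapped by a single pair of values, as WT animal 3 exceeded KO animal 2. On the log2 scale, KO differed from WT by 0.71 ± 0.21 (SE, adjusted p = 0.0299, limma, exact two-sided permutation p = 0.0571). The call did not survive the loss of any single animal other than WT animal 3, with log2 fold changes from 0.54 to 0.91 and adjusted p from 4.90e-04 to 0.0777 over the 8 fits (limma). For AAV against KO the value was -0.45 ± 0.20 (SE, adjusted p = 0.12, limma).

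Nr1d1 (ENSMUSG00000020889, chromosome 11, 98767932 to 98775333, - strand), which encodes REV-ERBα, the stronger repressor of Arntl, had nearly the same count in each library labelled WT (3212.3, 3452.8, 3453.5 and 3266.2). The libraries labelled KO had 4870.6, 2995.6, 2047 and 2423.6, and those labelled AAV 2819.8, 3110, 3452.1 and 2896.3. The spread was thus widest in KO (SD 1253.2, against 125.4 in WT and 283 in AAV), where KO animal 1 was the highest library and KO animal 3 the lowest. The difference on the log2 scale was -0.20 ± 0.23 (SE, adjusted p = 0.537) for KO against WT and 0.07 ± 0.23 (SE, adjusted p = 0.836) for AAV against KO (limma, Benjamini-Hochberg). Nr1d1 shares 1075 bases at its end with Thra on the opposite strand, a thyroid hormone receptor gene with a log2 fold change of -0.27 for KO against WT (adjusted p = 0.104, limma). Whether the counting used strand is not given in the sources used here, so reads of that stretch cannot be told apart.

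Of the PAR bZIP genes, neither Tef nor Dbp was called by limma. Tef (ENSMUSG00000022389, chromosome 15, 81802421 to 81826863, + strand) was the most abundant of the 10 genes in normalized counts, with 8434.3, 9852.3, 9731.4 and 9738.1 in WT animals 1 to 4. The libraries labelled KO had 11081.4, 11012.7, 12711.7 and 13599.7, and those labelled AAV 10194.7, 10563.2, 10858.2 and 8968.7. All 4 libraries labelled KO were above all 8 others. The differences were small, on the log2 scale 0.36 ± 0.12 for KO against WT (SE, adjusted p = 0.0509, limma, exact two-sided permutation p = 0.0286), just short of the threshold, and -0.25 ± 0.12 for AAV against KO (SE, adjusted p = 0.135, limma, exact two-sided permutation p = 0.0286). Tef was called for KO against WT by DESeq2 (adjusted p = 0.0168), under the stricter filter on low values (0.0484, limma) and with all 12 libraries in one fit (0.0387, limma). Without WT animal 3 the first value was 0.37 and passed the threshold, with adjusted p from 0.0260 to 0.138 over the 8 fits that left out 1 library (limma).

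Dbp (ENSMUSG00000059824, chromosome 7, 45705088 to 45710203, + strand), one of the most strongly rhythmic transcripts in mammalian tissues, was counted at 1320.2, 4055.5, 1883.8 and 2926.8 (normalized) in WT animals 1 to 4. The libraries labelled KO had 2033.9, 2386.7, 3635 and 3763.1, and those labelled AAV 3437.3, 2661.9, 2828.5 and 1429.8. Its highest and its lowest library were both labelled WT. The difference on the log2 scale was 0.29 ± 0.34 (SE, adjusted p = 0.532) for KO against WT and -0.21 ± 0.28 (SE, adjusted p = 0.596) for AAV against KO (limma, Benjamini-Hochberg). Dbp shares 737 bases with Sphk2 on the opposite strand, a sphingosine kinase gene whose log2 fold change for KO against WT was 0.22 (adjusted p = 0.291, limma).

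Between the genes themselves, levels were compared as normalized counts per kilobase of exon. In the libraries labelled WT, Tef (1199.8 ± 85.4) and Nr1d1 (1087.5 ± 40.8) stood highest, followed by Dbp (850.8 ± 403; SD, n = 4 here and below). Per1 (431.2 ± 158) and Nr1d2 (355.9 ± 118) formed a middle tier. Cry1 (88.03 ± 36.6), Per3 (54.95 ± 18.1), Arntl (39.53 ± 21.3) and Per2 (37.98 ± 14.7) were low, and Npas2 was lowest (5.83 ± 1.78). Dbp and either Tef or Nr1d1, Per1 and Nr1d2, Cry1 and Per3, Per3 and either Arntl or Per2, and Arntl and Per2 each differed by less than 1 SD of the more variable gene of the pair. In the libraries labelled KO, Per2 stood at 145.2 ± 46.5 per kilobase and Per3 at 106.5 ± 28.6, which put both next to Cry1 (134.1 ± 6.97) and above Arntl (46.77 ± 23.8).

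Within each library, 4 log2 ratios (phase ratios) were then taken between genes known to peak at different times. The size factor of the library cancels in them apart from the 1 added to each count. Whether they followed the internal time of these muscles was not tested. These ratios were taken from the genes described above and are given as a description, without a test. The log2 ratio of Arntl to Dbp was -2.03, -4.46, -1.87 and -4.11 in WT animals 1 to 4, -1.84, -2.52, -4.57 and -3.77 in the libraries labelled KO, and -4.75, -3.25, -2.93 and -2.79 in those labelled AAV. Group means were -3.12 ± 1.36, -3.18 ± 1.23 and -3.43 ± 0.90 (SD, n = 4), which is to say that animals of 1 group differed from each other far more than the groups did. WT animals 1 and 3 and KO animals 1 and 2 were at the Arntl-rich end, and WT animals 2 and 4, KO animal 3 and AAV animal 1 at the Dbp-rich end.

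The other ratios with Arntl overlapped between the groups as well. The log2 ratio of Arntl to Nr1d1 was -3.64 ± 0.74 in WT, -3.21 ± 0.38 in KO and -3.74 ± 0.54 in AAV, and that of Cry1 to Arntl was 0.04 ± 0.21, 0.51 ± 0.83 and 0.20 ± 0.41 (SD, n = 4). The highest Cry1 to Arntl ratios were those of KO animal 3 (1.5) and KO animal 4 (0.81). The ratio of Per2 to Nr1d1 separated the libraries labelled WT from all others. It was -4.90, -3.69, -3.50 and -3.94 in WT animals 1 to 4, -3.13, -2.12, -0.86 and -1.23 in the libraries labelled KO, and -1.29, -1.82, -2.41 and -3.33 in those labelled AAV. All 8 libraries labelled KO or AAV had a higher ratio than all 4 labelled WT. The group means of Nr1d1 lay between 3069.5 and 3346.2, and those of Per2 between 222.4 and 850.5. By the ratio of Arntl to Dbp, both WT and KO held libraries towards either end of the range. Whether the hour of harvest differed between the groups was not tested.

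**Figure D3:**
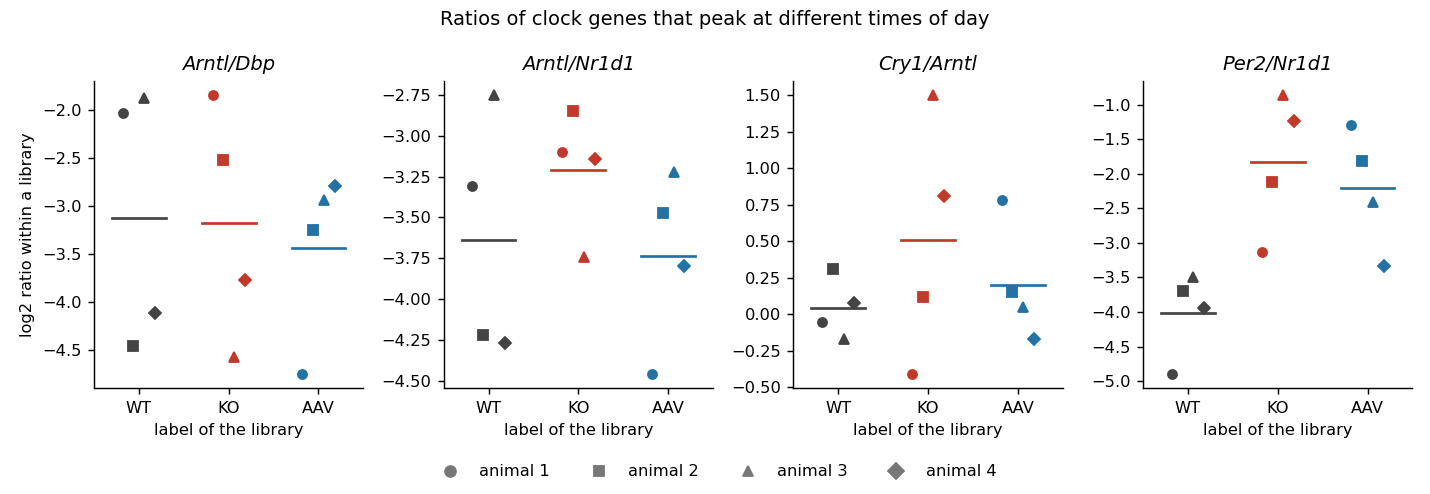
Log2 ratios within a library (vertical axis) of Arntl to Dbp, Arntl to Nr1d1, Cry1 to Arntl and Per2 to Nr1d1, by the label of the library. Points are animals and lines are group means (n = 4). The first 3 ratios overlap between groups, and the 4 values of Per2 to Nr1d1 in the libraries labelled WT (-4.90 to -3.50) lie below those of KO (-3.13 to -0.86) and AAV (-3.33 to -1.29).

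Some pairs of genes of opposite phase also stood opposite to each other from one library to the next. In the libraries labelled KO and AAV, the animal with the least Arntl was the one with the most Per3 (KO animal 3 with 152.3 and 1335.7, AAV animal 1 with 126.8 and 1374.1 normalized counts), and in those labelled WT the animal with the least Arntl, animal 4, had the second highest Per3. After subtraction of the group means, the Pearson correlation with Arntl over the 12 libraries was -0.818 for Per3, -0.702 for Per1 and -0.579 for Dbp, and 0.689 for Nr1d1 and 0.685 for Cry1. For Per2 (-0.319), Tef (-0.269) and Nr1d2 (0.165) it was closer to 0. Nr1d1, though it is known to peak at another time than Arntl, was thus higher where Arntl was higher. With Dbp the correlation was 0.838 for Per3, 0.817 for Tef and 0.811 for Per2, but 0.394 for Per1, 0.117 for Nr1d2, -0.142 for Cry1 and -0.33 for Nr1d1. Npas2 was left out of these correlations, as its mean was under the minimum level given below. In the libraries labelled WT and AAV, the animal with the most Arntl had the least Npas2. These were WT animal 3 (513.8 and 19.5 normalized counts) and AAV animal 3 (370.8 and 13). KO animal 1, with the most Arntl of its group (567.2), had 8.7 of Npas2, within a group range of 1.8 to 13.7. The correlations are a description of 12 libraries that were normalized together and centred on their group means.

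**Figure D4:**
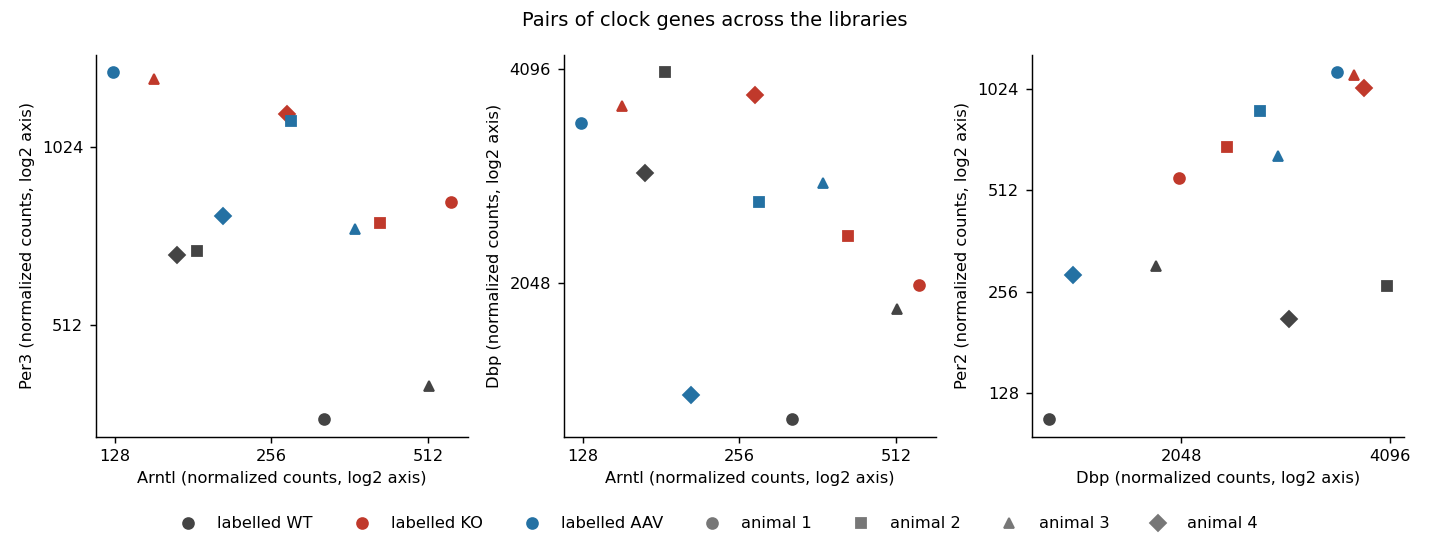
Normalized counts on log2 axes of Per3 against Arntl, Dbp against Arntl and Per2 against Dbp in the 12 libraries, coloured by label with marker shapes for the animal number. Within each label Per3 is higher in the library with the least Arntl than in that with the most, and every library labelled WT lies below every other library in Per3.

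Genes with the most similar and the most opposite pattern were sought among 11070 genes with a mean of at least 50 normalized counts, by the same within-group correlation. For Arntl, the highest included Lpin1 (0.959), which encodes a phosphatidate phosphatase, Tbc1d14 (0.956), Gtf3c4 (0.946) and BC068281 (0.94). The 5 lowest were Scarf2 (-0.977), Pald1 (-0.947), Trim7 (-0.945), Col7a1 (-0.936) and 2410002F23Rik (-0.931). For Dbp the 5 highest were Pmf1 (0.923), Sirt4 (0.916), a mitochondrial sirtuin gene, H2afv (0.91), Mrps26 (0.907) and Zdhhc1 (0.904), and the 5 lowest Asb7 (-0.904), Zfp568 (-0.897), Col4a1 (-0.892), Dip2c (-0.884) and Npr1 (-0.881). Per3, Tef and Per2 ranked 38, 54 and 61 in likeness to Dbp. Per1, Nr1d2, Cry1, Nr1d1 and Arntl ranked 1701, 4058, 7084, 9176 and 10663 of the 11070 genes. The ends of a list of this many genes are extreme by selection, and no p was computed.

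The remaining genes of the clock were examined as a list of 18, of which 16 were in the tables (Ciart and Fbxl21 were not). In the libraries labelled KO, 5 of the 16 were higher and 0 lower than in WT (adjusted p under 0.05, limma), beside 12.3% and 15.3% of all genes, and the median log2 fold change was 0.23, beside 0.02 over all genes. With each library left out in turn, 2 to 6 were higher and 0 lower. One of the 5, Rorb, reached the minimum of 10 normalized counts only in libraries labelled KO, so that it was tested only through the group where it is high, and 4 were higher without it. The largest change was in Hlf, the third PAR bZIP gene beside Dbp and Tef. Its normalized counts were 59.7, 52.1, 538.1 and 56.6 in WT animals 1 to 4, 658, 562.7, 845.1 and 934.6 in the libraries labelled KO and 264.6, 450, 561 and 52.3 in those labelled AAV. WT animal 3 alone among WT libraries was near the KO level, and AAV animal 4 was at the level of the other WT animals. Hlf differed on the log2 scale between KO and WT by 2.88 ± 0.65 (SE, adjusted p = 0.0119, limma), and for AAV against KO it was -1.59 ± 0.61 (SE, adjusted p = 0.0801, limma, exact two-sided permutation p = 0.0286). The call of Hlf for KO against WT held in all 8 fits that left out 1 library and rose to 3.69 without WT animal 3.

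The ROR genes, whose receptors activate Arntl at the elements that REV-ERB occupies, gave Rora at 0.85 ± 0.19 (SE, adjusted p = 0.0108, limma) for KO against WT. Rorb was scarce, with means of 3.76 normalized counts in WT, 13.1 in KO and 3.74 in AAV, and its difference is a description, since the filter on low values chose it by its level in KO. Arntl2, the relative of Arntl, was higher by 1.10 ± 0.30 (SE, adjusted p = 0.0237, limma), at means of 24 in WT and 51.6 in KO, and Cry2, named here after its values were seen, by 0.46 ± 0.12 (SE, adjusted p = 0.0179, limma). With 1 library left out, Rora stayed past the threshold in 8 of 8 fits and Cry2 in 7 (not without KO animal 4), but Arntl2 in 2 (without WT animal 3 or KO animal 1). Against KO, the libraries labelled AAV had 6 of the 16 lower and 0 higher, beside 13.4% and 12.8% of all genes, with a median of -0.31, beside 0.04. When libraries were scaled to their totals, 3 were lower. With 1 library left out, 2 to 5 were lower and 0 to 1 higher (1 without AAV animal 3). Rorb is again among the 6 through its level in KO, and 5 were lower without it. Of these 5, the largest falls were in Clock, the main partner of ARNTL (-0.68, adjusted p = 0.0120), and Rora (-0.67, adjusted p = 0.0128; both limma), which held in all 8 such fits. Between AAV and WT, 0 of 15 tested were called by limma, beside 1.29% of all genes, and 0 by edgeR, while 1 was called by DESeq2, under total scaling or without WT animal 3, and 2 had an unadjusted p under 0.05. Timeless had a log2 fold change of 0.99 (adjusted p = 0.0586, limma).

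**Figure D5:**
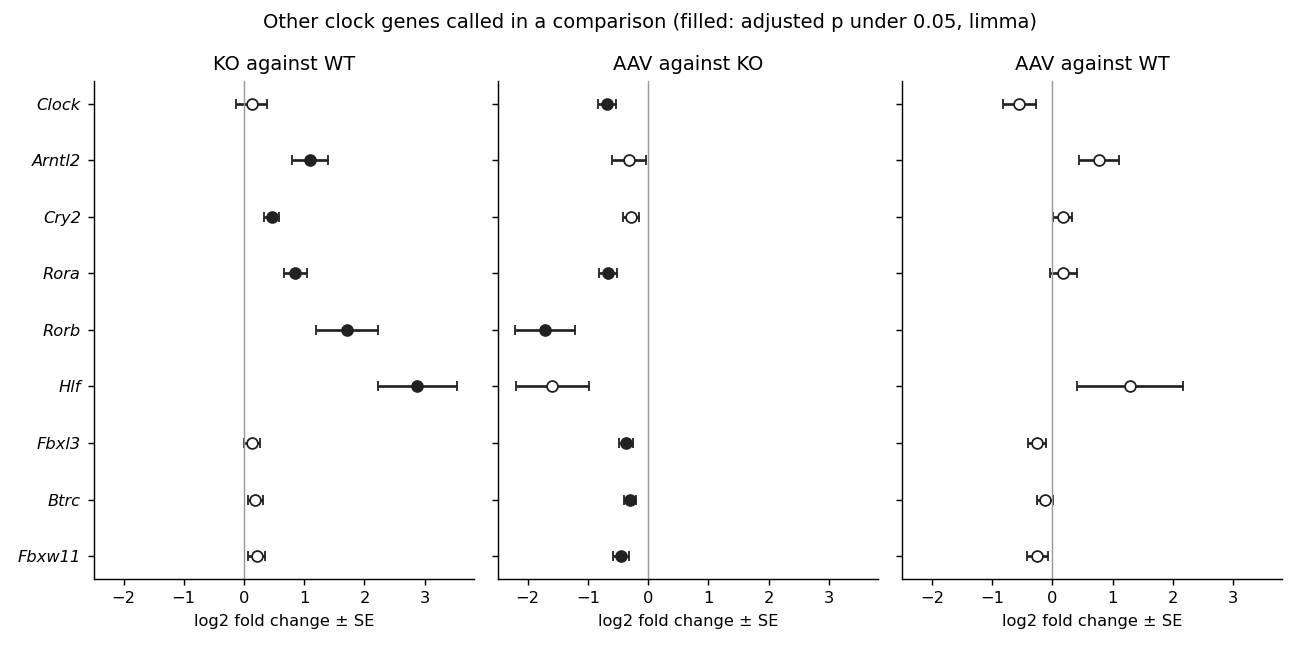
Log2 fold changes with standard errors (horizontal axis, limma on log2 of normalized count + 1) of the 9 further clock genes that passed the test in 1 or more comparisons, for the libraries labelled KO against WT, AAV against KO and AAV against WT (n = 4 per group). Filled points have an adjusted p under 0.05, 5 of them in the first panel, all higher in KO, and 6 in the second, all lower in AAV. Rorb was tested in these panels only through its level in KO and was not tested in the third.

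Of a list of 10 outputs of the clock in muscle, 2 were higher and 2 lower in the libraries labelled KO than in WT, beside 12.3% and 15.3% of all genes, and 1 was higher and 2 lower in AAV than in KO, beside 12.8% and 13.4%. For KO against WT, Usp2, which encodes a deubiquitinase, was higher by 0.65 (adjusted p = 0.0157) and Tspan4 by 0.79 (adjusted p = 0.0284), while Pdk4, the kinase that restrains pyruvate oxidation, was lower by a log2 fold change of -1.0 (adjusted p = 0.0385) and Myod1, the myogenic regulator, by -0.58 (adjusted p = 0.0248; limma for each). For AAV against KO, Pdk4 was higher by 0.88 (adjusted p = 0.0454), and Wee1, a cell cycle kinase, and Nampt, the NAD salvage enzyme, had log2 fold changes of -1.10 (adjusted p = 0.0149) and -0.55 (adjusted p = 0.0126; limma for each). The list's median was 0.25 and -0.02 in these comparisons, beside 0.02 and 0.04 over all genes. Without WT animal 2, neither Pdk4 nor Myod1 was called for KO against WT, and over all fits with 1 library left out Pdk4 and Myod1 were called in 3 of 8, Tspan4 in 2 and Usp2 in 8. In AAV against KO, Wee1 and Nampt were called in 8 of 8 such fits and Pdk4 in 1 (without AAV animal 3).

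Since Per1 and Per2 answer to hormones and other stimuli, genes of such responses were counted in the same fits. Of 11 glucocorticoid-responsive genes, 1 was higher in the libraries labelled KO than in WT and 3 were lower, beside 12.3% and 15.3% of all genes (1 to 4 higher and 2 to 3 lower with 1 library left out, the 4 without WT animal 3). Sgk1, a kinase gene induced by glucocorticoids, had a log2 fold change of 1.27 (adjusted p = 0.00263, limma), whereas the metallothionein genes Mt2 and Mt1, which also answer to metals, had -5.91 (adjusted p = 0.001015) and -4.43 (adjusted p = 0.00207), and Cebpd -1.72 (adjusted p = 0.0366; limma for each). The first 3 of these held in all 8 fits that left out 1 library, and Cebpd in 2 (without WT animal 3 or KO animal 3). For AAV against KO, Sgk1 had -1.19, Mt1 3.57 and Mt2 5.06 (adjusted p = 0.00491, 0.0108 and 0.00503, limma). Fkbp5, another common marker of glucocorticoid action named here after its values were seen, was at 0.96 for KO against WT without passing the test (adjusted p = 0.129, limma).

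Of 8 immediate early genes, which are switched on within minutes of a stimulus, 6 were lower in the libraries labelled KO than in WT, beside 15.3% of all genes, with a median log2 fold change of -1.63 (3 to 6 lower with 1 library left out, 3 without WT animal 2). These included Egr1 at -3.30 (adjusted p = 0.0145), Junb at -3.26 (adjusted p = 0.00224), Egr2 at -1.92 (adjusted p = 0.0478) and Ier2 at -1.65 (adjusted p = 0.0127; limma for each). For AAV against KO, 2 of the 8 were higher, Egr1 by 2.58 and Ier2 by 1.23 (adjusted p = 0.0475 and 0.0133, limma), beside 12.8% of all genes. That count was 1 by edgeR, 3 by DESeq2 and 1 to 5 with 1 library left out, the 5 without AAV animal 3, and Egr1 was called in 2 of these 8 fits and Ier2 in 8. The summed level of the list was 7095.3 to 14451.6 normalized counts in WT, 3169.8 to 4616.5 in KO and 3795.7 to 8602.9 in AAV. The 6 genes called were thus lower under the KO label, where Per2 and Per3 were higher, and a link was not tested. Fos (adjusted p = 0.184) and Fosb (adjusted p = 0.716) did not pass the test (limma). Of 7 genes of temperature and heat shock, Hspa8 was called for KO against WT (-0.94, adjusted p = 0.0287) and Hsph1 for AAV against KO (-0.53, adjusted p = 0.0443; limma for each), beside 15.3% and 13.4% of all genes called lower. Each was called in 2 of the 8 fits that left out 1 library (Hspa8 without KO animal 2 or WT animal 3, Hsph1 without KO animal 3 or AAV animal 4), Hspa8 was not called by edgeR and Hsph1 not when libraries were scaled to their totals. Of 8 genes of fasting and feeding, Lpin1 was higher for KO against WT (0.82, adjusted p = 0.0139) along with the lower Pdk4 (1 higher and 1 lower, beside 12.3% and 15.3% of all genes, and 3 lower by DESeq2), and Fbxo32 was lower for AAV against KO (-0.74, adjusted p = 0.0403, limma) along with the higher Pdk4 (1 of each, beside 12.8% and 13.4%). Lpin1 held in 8 of the 8 fits that left out 1 library and Fbxo32 in 2 (without AAV animals 3 or 4), and Fbxo32 was not called when libraries were scaled to their totals. Of these genes of stimulus and feeding, none passed the limma test between AAV and WT, whereas DESeq2 called 1 of the immediate early, 1 of the temperature and 2 of the fasting genes, and 1, 1 and 3 of them had an unadjusted p under 0.05 by limma (3 of the glucocorticoid genes, 0 by DESeq2).

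Markers of muscle fibres and of other cells were counted in the same comparisons. Of the 6 markers of skeletal muscle fibres, 1 was higher in KO than in WT, beside 12.3% of all genes. This was Myh4 (log2 fold change 0.73, adjusted p = 0.0487, limma). The count was 0 to 1 with 1 library left out, 0 without WT animal 2, and 2 by DESeq2. For AAV against KO, Myh4 was at -0.77 (adjusted p = 0.132, limma), and edgeR and DESeq2 each called 1 of the list lower. Of 6 markers of slow fibres, 6 were lower in the libraries labelled KO than in WT, beside 15.3% of all genes (3 to 6 with 1 library left out, 3 without WT animal 2), and 6 were higher in AAV than in KO, beside 12.8%, with a summed level of 1346.5 to 4644.3 normalized counts in WT, 128.2 to 200.1 in KO and 1678.5 to 21014.7 in AAV. Of 4 endothelial markers, 2 were higher in KO than in WT (Pecam1 and Cdh5), beside 12.3% of all genes and with 0 to 4 when 1 library was left out (0 without WT animals 2 or 4 or KO animals 1, 2 or 3, and 4 without WT animal 3), with a summed level of 1406.4 to 4295.9 in WT and 3402.4 to 4581.1 in KO. Of 4 macrophage markers in the tables, 1 was higher and 1 lower in KO, beside 12.3% and 15.3% of all genes, and of the 5 adipocyte, 4 fibroblast and 4 Schwann cell markers, 0 were called for KO against WT by limma (1 of each list had an unadjusted p under 0.05, and DESeq2 called 1, 1 and 0). The 2 red cell markers in the tables were higher in AAV than in KO, with summed levels of 331.3 to 912.1 against 31.5 to 327.2, beside 12.8% of all genes (0 to 2 with 1 library left out, 0 without AAV animals 1 or 2 or KO animals 1 or 2). The part of these markers in the differences of Per2, Per3, Nr1d2, Npas2 and Cry1 was not tested.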

How the data were processed

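Quadriceps RNA of 12 mice was analysed, 4 libraries per group by their labels. The authors trimmed reads (Trim Galore 0.4.1), mapped them with STAR, counted them per gene with HTSeq 0.6.1 on GRCm38 and divided each library by a DESeq2 1.16.1 size factor. The deposited normalized signal is therefore not a raw count, although whole reads were recovered in all 12 libraries (within 0.001 reads, or 0.001 of the read count where that is larger). Since this tolerance grows with the count, the check can fail only for genes with few reads. The deposited log2 fold changes, scores (Wald statistics) and p-values of the authors' own comparisons were not used, and 0 columns of other samples were present. Values of the libraries labelled KO were the same in both tables.

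Genes that reached 10 in 1 or more of the 8 libraries of a comparison were tested by limma 3.58.1 with a trend on log2(value + 1), with Benjamini-Hochberg adjustment over all genes, in R 4.3.3; the added 1 shrinks the fold change of a gene with few reads. The limma tests were tested on simulated data. For single genes an exact two-sided permutation test was added, whose smallest p is 0.0286. Alternatives were edgeR 4.0.16 and DESeq2 1.42.0 on recovered reads, other scalings, filters and pseudocounts, all 12 libraries in one fit, the replicate number as a block and libraries left out. Gene positions follow GENCODE M21 (GRCm38).

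The 10 genes and all lists were chosen with earlier results of these data known. Named were Gaa, the 10 genes, list genes that passed the test (the 4 largest changes where none or over 4 did), overlapping genes and the 5 genes most and least like Arntl and Dbp. Some genes under this rule are not reported here. No 2 libraries of a group agreed within sampling noise. Replicate numbers mark different animals, and p-values measure the spread between them.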

Additional observations from a re-analysis of the deposited data

Results flagged for a closer look

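In groups of 4 libraries, a library was marked when its gap to the nearest other, divided by the range of the group, exceeded Dixon's 95% critical value, which chance alone reaches in about 1 in 20 groups, and 93 groups were checked. Among the 10 clock genes this marked Tef in WT animal 1 (8434.3 normalized counts, ratio 0.915), the lowest of its group. Of the further clock genes, Hlf in WT animal 3 (538.1, ratio 0.984) and Arntl2 in the same animal (ratio 0.919) stood above the other libraries labelled WT, and Cry2 in WT animal 2 stood apart as well (ratio 0.930). WT animal 3 was also the library with the highest Arntl, Cry1, Nr1d2 and Per2 and the lowest Per1 and Npas2 of its group. Of the outputs that were checked, which were not all of that list, Pdk4 in AAV animal 2 (27432 normalized counts, ratio 0.846) was marked. The targeted gene Gaa was marked in WT animal 2 (14640.2, ratio 0.991) and in AAV animal 4 (9854.3, ratio 0.952), the 2 libraries that stood apart from their labels' groups. Without both, the comparison of AAV with WT called 10 genes, none of them a clock gene, and gave Per2 a log2 fold change of 2.19 and Per3 1.20.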

How the results depend on the processing

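Each group difference of a phase ratio moved by less than 1 SD under the alternatives run, although that of Arntl to Dbp for KO minus WT (-0.06) ran from -0.51 to 0.40 with 1 library left out, and Per2 for KO against WT stayed past the threshold under all 17 alternatives. Of the 10 genes, Tef for KO against WT became called under DESeq2, the stricter filter and the fit of all 12 libraries, Cry1 for KO against WT under total scaling and Npas2 for AAV against KO under DESeq2. For AAV against KO, 2179 genes were called with the replicate block, against 3910 without it. Of the clock genes in that comparison, 2 were called by DESeq2, 0 with all 12 libraries in one fit and 0 with the replicate block. For AAV against WT, DESeq2 called 951 genes, total scaling 320, no filter 127, all 12 libraries in one fit 901 and leaving out WT animal 2 with AAV animal 4 called 10, against 193, and of the clock genes DESeq2 called 2 and the fit of all 12 called 1. The cause of these changes was not tested. Signs turned for small differences: for AAV against KO, Per1 (0.06) and Per3 (0.14) under total scaling, which moved the median of all genes to 0.204, and Nr1d1 under edgeR (-0.03) and DESeq2 (-0.02). For AAV against WT they turned for Npas2 under edgeR (0.11) and DESeq2 (0.08), for Cry1 (0.08) and Nr1d1 (0.02) under total scaling (median of all genes 0.119) and for Cry1 without WT animal 2 and AAV animal 4 (0.01).

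With 1 library left out, 2353 (without WT animal 4) to 7163 (without WT animal 3) genes were called for KO against WT, 1961 (without KO animal 4) to 5071 (without AAV animal 3) for AAV against KO and 18 (without AAV animal 2) to 442 (without WT animal 3) for AAV against WT, with 1 to 6, 0 to 1 and 0 to 1 clock genes. Log2 fold changes crossed 0 in these fits for Arntl in KO against WT (-0.05 to 0.58), for Per1 (-0.22 to 0.01), Per2 (-0.58 to 0.09), Per3 (-0.19 to 0.11), Nr1d1 (-0.10 to 0.32) and Dbp (-0.37 to 0.05) in AAV against KO, and for Arntl (-0.46 to 0.08), Npas2 (-0.65 to 0.08), Cry1 (-0.28 to 0.17) and Dbp (-0.19 to 0.35) in AAV against WT.

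Animals of different groups share only a number: deviations of same-numbered libraries correlated between -0.115 and 0.025 for WT and KO, -0.176 and 0.062 for KO and AAV, and -0.355 and 0.554 for WT and AAV, and 0, 1 and 2 of 4 libraries correlated best with their own number. With the replicate block, KO against WT called 3062 genes and 4 clock genes. Depth limits scarce genes such as Npas2, Arntl2 and Rorb, at means of 27.95, 23.99 and 3.76 normalized counts in WT.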
